A study of Mus musculus with 149 samples.

Results

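The genes described here build or regulate the axoneme, the microtubule shaft of the cilium, and were followed in mouse lung across 20 groups that differed in sensitization, challenge and time. They were chosen by name. A gene was a member if its annotated symbol began with Dnah, Dnai, Dnal, Tekt, Rsph, Spag or Cfap, or with Ift followed by a digit, or if it was Hydin or Foxj1, and where a gene had several probe sets the brightest on average was taken. The rule found 67 members among the 13494 genes with a probe set of their own. Of these, 55 had a single probe set and 12 had more. Because the rule reads names and not functions, it also took in 3 Spag genes known for roles outside the axoneme, Spag5, Spag7 and Spag9, which are kept in every count and pointed out where they matter. Dnah5, Dnai2 and Spag17 are not analysed here, and the intermediate chain gene Dnai1 carries its older symbol Dnaic1.

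Motile cilia on the airway lining beat in waves and carry mucus out of the lung. Each has a ring of doublet microtubules around a central apparatus. Outer and inner dynein arms on the doublets supply the force, radial spokes link the doublets to the central apparatus, tektins and other proteins inside the doublet wall stiffen it, and intraflagellar transport (IFT) carries parts up and down the shaft. Foxj1 is the forkhead transcription factor that switches on the motile cilium genes in multiciliated cells, together with factors of the RFX family that bind a sequence called the X-box. In allergic airways some lining cells become mucus-making goblet cells, so the make-up of the epithelium can change along with each cell's own RNA.

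The study used BALB/c mice, of which one set was naive and the other was sensitized to ovalbumin (OVA). Each animal then received saline, buffer (labelled 0.1% MSA), or 150, 500 or 1500 ng of the epithelial cytokine thymic stromal lymphopoietin (TSLP), and lung RNA was taken 6 h or 24 h later. No genetic change is named for any group, and neither the age of the animals nor how the challenge was given is stated in the sources used here. Each array is 1 animal, with 8 animals in 12 groups, 7 in 5 groups and 6 in 3 groups. In whole-lung RNA, fewer ciliated cells and less RNA per ciliated cell cannot be told apart.

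RefSeq promoters (build GRCm38.p6) were matched by Entrez gene number for 54 of the 67 members, with 61 promoters in all, each from 250 bases before to 50 bases after a transcription start. They were searched on both strands for the X-box (its 14 letters stand in capitals in the windows), for a shorter RFX motif (GTTGCCA) and for a forkhead core (TGTTTAC), since Foxj1 is a forkhead factor and the members are a set that RFX factors are known to bind. The X-box occurred in 8 of the 61 members' promoters (13.1%) and in 425 of all 32851 promoters of the same length (1.29%). The shorter RFX motif occurred in 9 of 61 (14.8%) against 4.38% of all promoters, and the forkhead core in 3 of 61 (4.92%) against 3.65%. The X-box and the shorter motif overlapped in 141 promoters overall and in 0 of the members'. A match is a run of letters and not a shown binding site. An X-box also occurred in the promoter of Spag5, the mitotic member. The windows that follow carry the X-box of a tektin, a central apparatus gene, a radial spoke gene, a dynein arm assembly gene and 2 IFT-B genes, and then the shorter RFX motif of Hydin, of Ift88 and of a second tektin. Each runs 5′ to 3′ on the gene's strand with the motif in capitals.

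Tekt4, chr17:25471422-25471451, plus strand, X-box: ccccacctGTGTCCTGGGAAACaaactcat
Spag6l, chr16:16829314-16829343, minus strand, X-box: tccggttgctgtcgGTTGCCCTGGAGACgc
Cfap206, chr4:34730208-34730237, minus strand, X-box: cgcgttccGTTTCCACGGTTACgcgactgc
Cfap298, chr16:90935016-90935045, minus strand, X-box on both strands: gggttttgGTTGCCCGGGCAACagctactt
Ift22, chr5:136908109-136908138, plus strand, X-box: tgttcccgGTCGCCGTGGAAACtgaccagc
Ift57, chr16:49699199-49699228, plus strand, X-box: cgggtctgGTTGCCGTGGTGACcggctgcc
Hydin, chr8:110266951-110266980, plus strand, shorter RFX motif: ctgcggttgctgTGGCAACagatggtaaca
Ift88, chr14:57424079-57424108, plus strand, shorter RFX motif: tggagtcgcgccTGGCAACggctgggcgtc
Tekt1, chr11:72361880-72361909, minus strand, shorter RFX motif: tgcgtccgtccgGTTGCCAtagagaccgca

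The 250 bases before the start are shown for Tekt1 (at the start that has the motif) and Tekt4, since these tektins were among the members whose levels followed Foxj1 most closely from animal to animal.

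Tekt1, chr11:72361883-72362132, minus strand: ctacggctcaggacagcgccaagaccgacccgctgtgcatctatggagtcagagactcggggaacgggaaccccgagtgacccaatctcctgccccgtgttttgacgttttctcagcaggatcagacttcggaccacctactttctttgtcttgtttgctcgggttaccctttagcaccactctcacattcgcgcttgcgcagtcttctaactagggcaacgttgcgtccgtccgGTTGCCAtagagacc
Tekt4, chr17:25471340-25471589, plus strand: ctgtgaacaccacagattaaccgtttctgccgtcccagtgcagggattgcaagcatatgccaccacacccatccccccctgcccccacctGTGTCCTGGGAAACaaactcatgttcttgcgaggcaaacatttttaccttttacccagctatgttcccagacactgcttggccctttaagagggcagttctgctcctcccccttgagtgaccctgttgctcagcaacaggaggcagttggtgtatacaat

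The values are log2 expression levels from the authors' RMA normalization, so a difference of 1 is a 2-fold change, and levels of different genes cannot be set against each other. Differences are first group minus second on this scale, with the standard error (SE) of the fit. The lung markers Sftpc, Scgb1a1, Cyp2f2 and Ager were high on every array (13.35 to 14.48). On 6 arrays the gullet keratins Krt4 and Krt13 stood over 2 log2 units above their median. A quality measure moved with the groups: the beta-actin 3′ minus 5′ difference, which grows as RNA is shortened or labelled less fully, differed in 20 of the 36 two-group comparisons (exact permutation tests, adjusted over the 36). Within groups, 34 members rose and 9 fell with this difference (33.0% and 21.8% of all genes), with a median slope of 0.15 per unit against 0.041 over all genes. The slope was 0.63 for Dnah2 and -0.44 for Foxj1. A fit with this difference as a covariate was therefore run for every comparison. Its counts are given where they differ from the main ones by more than 1.5 times. Where the beta-actin values of the compared groups do not overlap, the covariate fit extends the slope seen within groups across a gap. Group and RNA quality then cannot be told apart.

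Members varied between animals to different degrees. The range over all arrays went from 0.57 for Spag7 and 0.60 for Cfap97 to 2.60 for Foxj1 and 3.15 for Spag5. The SD within groups had a median of 0.21 over the members and 0.16 over all genes. Averaged over the 67 members, each taken relative to its own mean, group means ran from -0.19 in naive mice 24 h after buffer to 0.22 in OVA mice 6 h after buffer. The latter group was also the most scattered, with single arrays from -0.15 to 0.71.

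**Figure D1:**
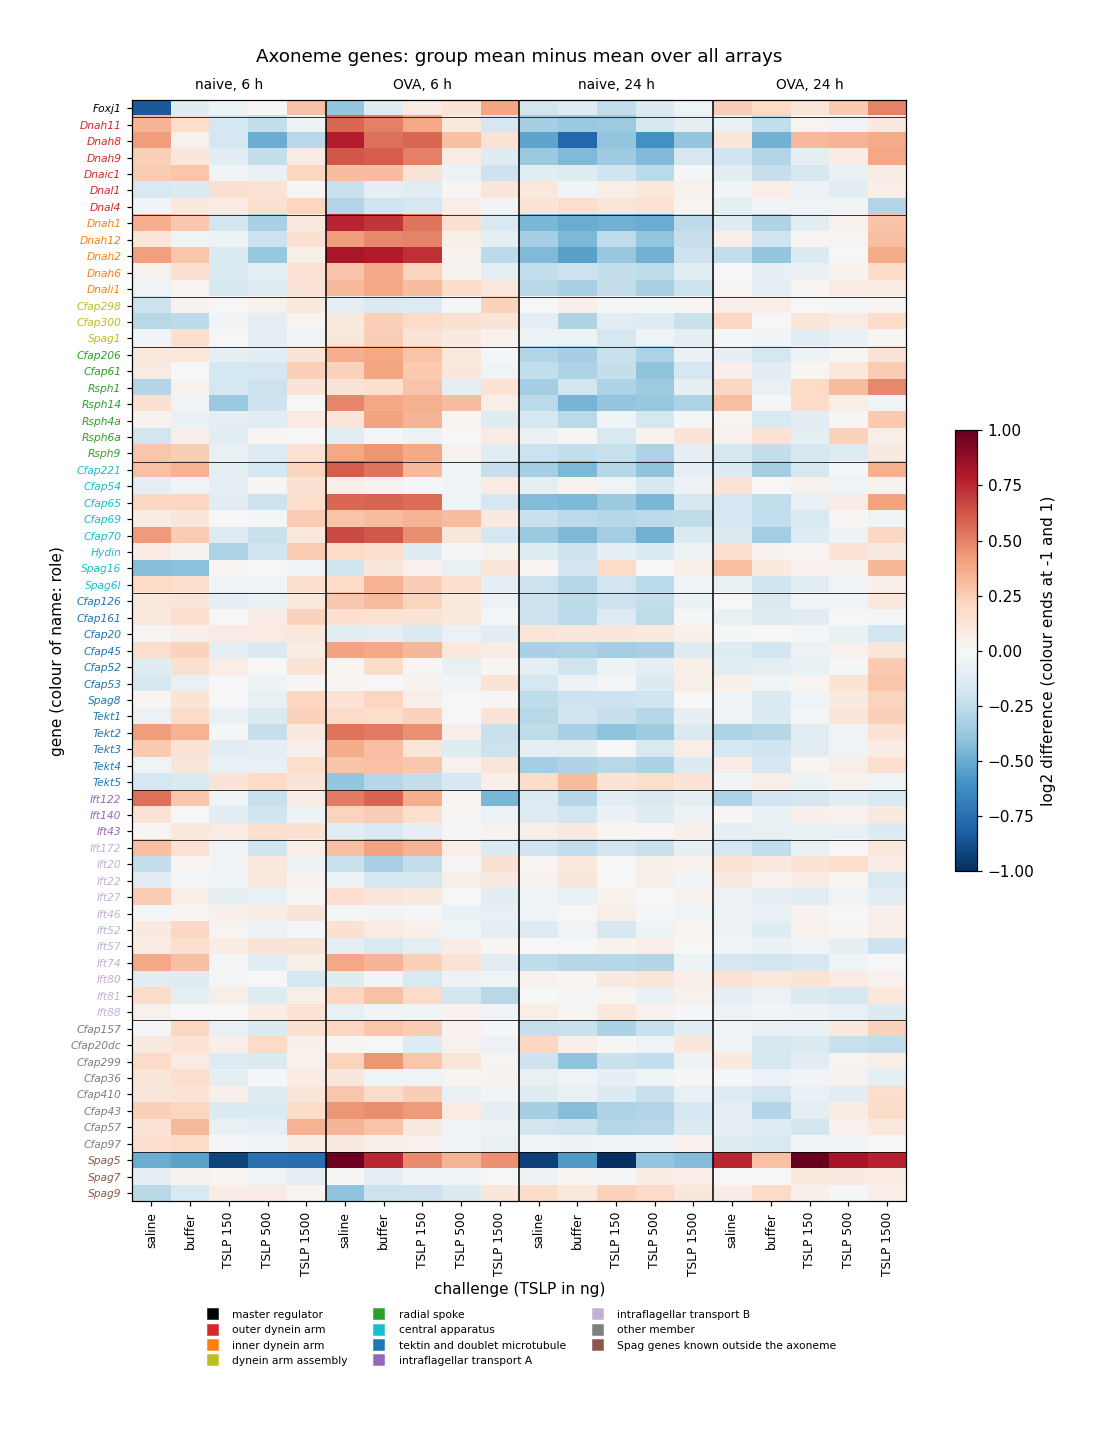
Each row is 1 of the 67 axoneme genes, grouped by role, and each column is 1 of the 20 groups; colour gives the group mean minus the gene's mean over all arrays in log2 units and ends at -1 and 1, which Spag5 passes. The dynein heavy chains are high in OVA mice 6 h after saline, buffer or 150 ng TSLP and low in naive mice at 24 h, Foxj1 is lowest in naive mice 6 h after saline, and Spag5 splits naive from OVA mice.

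Members followed Foxj1 from animal to animal to very different degrees. After each group's mean was subtracted, Pearson correlation with Foxj1 over all arrays was above 0.5 for 26 of the other 66 members, between 0 and 0.5 for 33 and below 0 for 7. The median was 0.43, against -0.017 over all genes, of which 2.11% passed 0.5. All these values share arrays, RNA quality and dissection, so they are descriptions. Closest were Rsph1 (0.76), a spoke head protein, Tekt1 (0.76) and Tekt4 (0.74), filaments of the doublet wall, and the dynein arm assembly factor Cfap298 (0.71). Hydin, a giant protein of the central apparatus, stood at 0.64, and the inner arm chain Dnah6 at 0.68.

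By role, the median correlation with Foxj1 was 0.58 for the radial spoke genes, 0.57 for tektins and other doublet genes, 0.54 for inner dynein arms and 0.49 for the central apparatus. The dynein arm assembly genes had the highest, 0.62, the members without a fixed role 0.40 and the outer dynein arm genes 0.29. It was lower for IFT-B (0.27) and for IFT-A (-0.016), and it was 0.044 for the 3 Spag genes known outside the axoneme. The 3 IFT-A genes were spread, with Ift43 at 0.61, Ift140 at -0.016 and Ift122 at -0.25. IFT is transport machinery that many non-motile cilia also use, and whether this had a part in its values was not tested. The lowest members were Dnah11 (-0.28), Ift27 (-0.25) and Ift122 (-0.25). Among the genes outside the rule, the 10 most like Foxj1 were 1110017D15Rik (0.84), Elof1 (0.84), Lrrc51 (0.82), Iqcg (0.82), 1700007K13Rik (0.79), Ubxn10 (0.78), Lrrc23 (0.78), AU040972 (0.77), Mgat3 (0.77) and Erich2 (0.77).

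**Figure D2:**
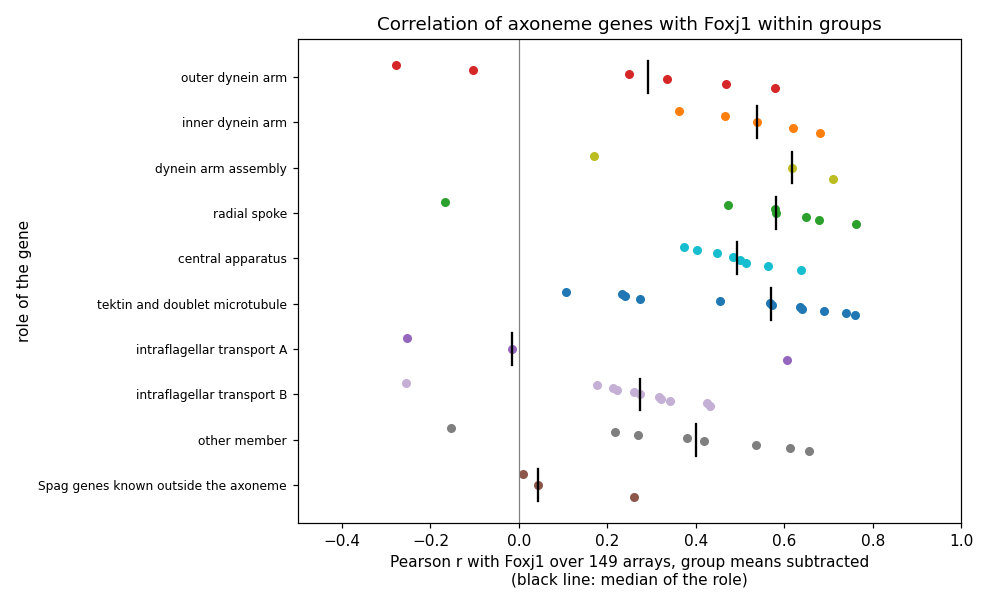
Each point is 1 member, placed by its Pearson correlation with Foxj1 over all arrays after group means were subtracted (x axis, no unit), in rows by role; the black line is the median of the role. Rsph1 (0.76), Tekt1 (0.76) and Tekt4 (0.74) lie farthest right, and Dnah11 (-0.28) farthest left.

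The clearest rise of the axoneme genes came in OVA mice 24 h after 1500 ng TSLP. Compared with OVA mice given buffer, 29 of the 67 members rose and 4 fell (limma, adjusted p under 0.05 over all genes), where 21.0% of all genes rose and 17.5% fell. The members' median difference was 0.24, against 0.0092 over all genes. Rises reached 1.80-fold and were largest for the heavy chains Dnah8, Dnah2 and Dnah9 and the central apparatus gene Cfap221. Compared with saline in place of buffer the picture was weaker, with 12 members higher and 3 lower beside 15.8% and 13.3% of all genes. The share of rises was close to the background, and the median was 0.12. Higher against saline were Dnah1, Dnah2, Dnah9, Rsph9, Cfap52, Cfap65, Cfap157, Cfap221, Cfap410, Tekt2, Ift81 and Ift172. Lower were Cfap20, Ift22 and Ift57, and the other rises and falls described below did not pass against saline.

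Among the outer dynein arm genes 3 of 6 rose and 1 fell. The heavy chain Dnah9, a motor of airway cilia, ran from 7.91 to 8.20 with a median of 8.02 after buffer, and after 1500 ng TSLP from 7.88 to 9.06 with a median of 8.84. All but the lowest of the 7 TSLP animals lay above every buffer animal. The difference was 0.68 ± 0.14 SE, a rise of 1.6-fold (limma adjusted p = 3.44e-05).

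Dnah8, a heavy chain best known from sperm, ran from 8.35 to 9.93 with a median of 9.01 after buffer, and after 1500 ng TSLP from 9.11 to 10.51 with a median of 9.90. It showed the largest difference of any member, 0.85 ± 0.17 SE (limma adjusted p = 4.97e-05). The groups overlapped, since the highest buffer animal stood near the middle of the TSLP animals. Against saline the Dnah8 difference was 0.26 (limma adjusted p = 0.293) and did not pass.

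Dnah11, another heavy chain of the outer arm, rose by 0.34 ± 0.092 SE and was above the buffer mean in 7 of 7 TSLP animals. The light chain Dnal4 went the other way at -0.26 ± 0.082 SE (limma adjusted p = 0.00706). The intermediate chain Dnaic1 was at 0.30 ± 0.14 SE and the light chain Dnal1 at -0.0020; neither passed the test.

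Of the 5 inner dynein arm genes, Dnah2, Dnah1 and Dnah12, all heavy chains, rose. Dnah2 in the buffer animals ran from 8.48 to 8.94 with a median of 8.62, and in the TSLP animals from 8.55 to 9.98 with a median of 9.49. All but the lowest TSLP animal exceeded every buffer animal. The rise was 0.76 ± 0.15 SE, or 1.7-fold (limma adjusted p = 3.31e-05), and 0.62 against saline (limma adjusted p = 0.00149). Dnah1 rose by 0.59 and Dnah12 by 0.50, while Dnah6 at 0.27 (limma adjusted p = 0.0595) and the light intermediate chain Dnali1 at 0.18 did not pass.

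Radial spoke genes rose in 3 of 7 cases, all of them spoke head proteins. Rsph1 in the buffer animals ran from 9.03 to 9.57 with a median of 9.29, and in the TSLP animals from 9.13 to 10.51 with a median of 9.89; the groups overlapped through the single lowest TSLP animal. Rsph1 rose by 0.55 ± 0.16 SE (limma adjusted p = 0.00373), Rsph4a by 0.41 ± 0.14 SE and Rsph9 by 0.33 ± 0.094 SE. Against saline Rsph1 differed by 0.27 (limma adjusted p = 0.227): OVA mice given saline stood at 9.59 ± 0.39 (SD, n = 7) and those given buffer at 9.31 ± 0.19 (SD, n = 8). Cfap61 of the spoke base was just outside the threshold at 0.36 ± 0.15 SE (limma adjusted p = 0.0504).

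In the central apparatus Cfap221, Cfap65 and Cfap70 rose, 3 of 8 genes. Cfap221 ran from 7.44 to 7.92 with a median of 7.62 after buffer, and from 7.57 to 8.82 with a median of 8.41 after TSLP, a rise of 0.69 ± 0.16 SE. Cfap65 rose by 0.65 ± 0.15 SE and Cfap70 by 0.56 ± 0.15 SE. Hydin differed by only 0.050 ± 0.14 SE, with buffer animals from 8.10 to 8.54 with a median of 8.33, and TSLP animals from 7.53 to 8.76 with a median of 8.39. Spag6l at 0.25 and Spag16 at 0.24, both known as central apparatus proteins, did not pass either.

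Tektins and other doublet genes rose most often by count, 8 of 12, with 1 fall. With the beta-actin covariate 5 of the 12 rose and 1 fell. Against saline only Tekt2 (0.46) and Cfap52 (0.36) of the 8 passed, and Tekt1 stood at 0.27 (limma adjusted p = 0.153). Tekt2 (0.43 ± 0.12 SE), Tekt1 (0.37 ± 0.14 SE), Tekt4 (0.34) and Tekt3 (0.28) rose, as did Spag8, Cfap45, Cfap52 (0.36) and Cfap53 (0.32). Tekt1 in the buffer animals ran from 9.41 to 10.02 with a median of 9.73, and in the TSLP animals from 9.48 to 10.51 with a median of 10.02, with overlap. Tekt5 was at -0.11 and Cfap126 at 0.25, neither past the threshold. Cfap20 fell by 0.19 on the log2 scale (limma adjusted p = 0.00385), and its groups did not overlap.

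The transport genes moved less. Of 11 IFT-B genes 4 rose and 2 fell, and of 3 IFT-A genes Ift140 rose by 0.16 ± 0.055 SE. Ift172, an IFT-B subunit, rose by 0.35 ± 0.067 SE with no overlap between the groups (limma adjusted p = 1.29e-05), and Ift52, Ift74 and Ift81 rose by 0.19, 0.18 and 0.17. Ift22 and Ift57 were lower, at -0.20 and -0.15. Ift122 at 0.043 and Ift88 at -0.12 did not pass. Among the members without a fixed role 4 of 8 rose, including Cfap43 (0.47) and Cfap410 (0.37), whose groups did not overlap. Groups failed to overlap for 3 members in all (4.48%), and for 8.77% of all genes. None of the 3 assembly genes and none of Spag5, Spag7 and Spag9 passed.

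Foxj1 itself did not pass in OVA mice at 24 h. Buffer animals ran from 8.05 to 8.88 with a median of 8.61, and animals given 1500 ng TSLP from 8.18 to 9.38 with a median of 8.93, with wide overlap. The difference was 0.30 ± 0.18 SE (limma adjusted p = 0.194). With the beta-actin covariate it was 0.44 (SE 0.18, limma adjusted p = 0.0456).

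Beta-actin 3′ minus 5′ was 0.32 (SE 0.093) higher after 1500 ng TSLP in these OVA mice (exact permutation test, adjusted p = 0.0016). The beta-actin values did not overlap (1.12 to 1.39 after buffer, 1.44 to 1.99 after TSLP). Treatment and RNA quality therefore cannot be told apart in this comparison either. With beta-actin as a covariate 25 members rose and 2 fell, beside 17.2% and 15.5% of all genes. Called in the same direction in both fits were 24 members. Replicate 1 of the OVA 1500 ng group had the lowest mean over the members of that group (-0.30, against 0.055 to 0.32 in the other 6). Without it 41 members were called, and without replicate 3, the highest, 26. Shares of all genes were not counted for these fits.

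Other cell types moved in the same comparison. Ciliated cell genes outside the naming rule rose in 31 of 58 cases and fell in 2 (median 0.30), led by Drc1 (0.72 ± 0.13 SE), a protein of the link between doublets, Stk36, Ccdc40 and Armc3. Of 25 IFT motor and BBSome genes 1 rose and 2 fell, the latter including the kinesin-associated Kifap3 (-0.25 ± 0.042 SE). Goblet cell markers rose in 7 of 10 cases (median 1.07) while club cell markers fell in 4 of 10, alveolar type 1 markers in 7 of 10, endothelial markers in 7 of 10 and fat markers in 5 of 5 (median -1.98). Cartilage markers, a sign of large airway in the piece taken, fell in 1 of 10 with a median of 0.027, and their mean level spanned 6.90 to 7.68 after buffer and 7.06 to 7.23 after TSLP. The mean level of the goblet list spanned 8.95 to 10.68 after buffer and 8.97 to 11.57 after TSLP, that of the club list 12.93 to 13.21 and 12.91 to 13.11, and that of the alveolar type 1 list 12.71 to 12.85 and 12.50 to 12.71. For endothelium these were 11.72 to 11.95 and 11.34 to 11.75, and for fat 7.55 to 11.28 and 6.27 to 8.71. The part of these cell types in the members' rise was not tested.

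**Figure D3:**
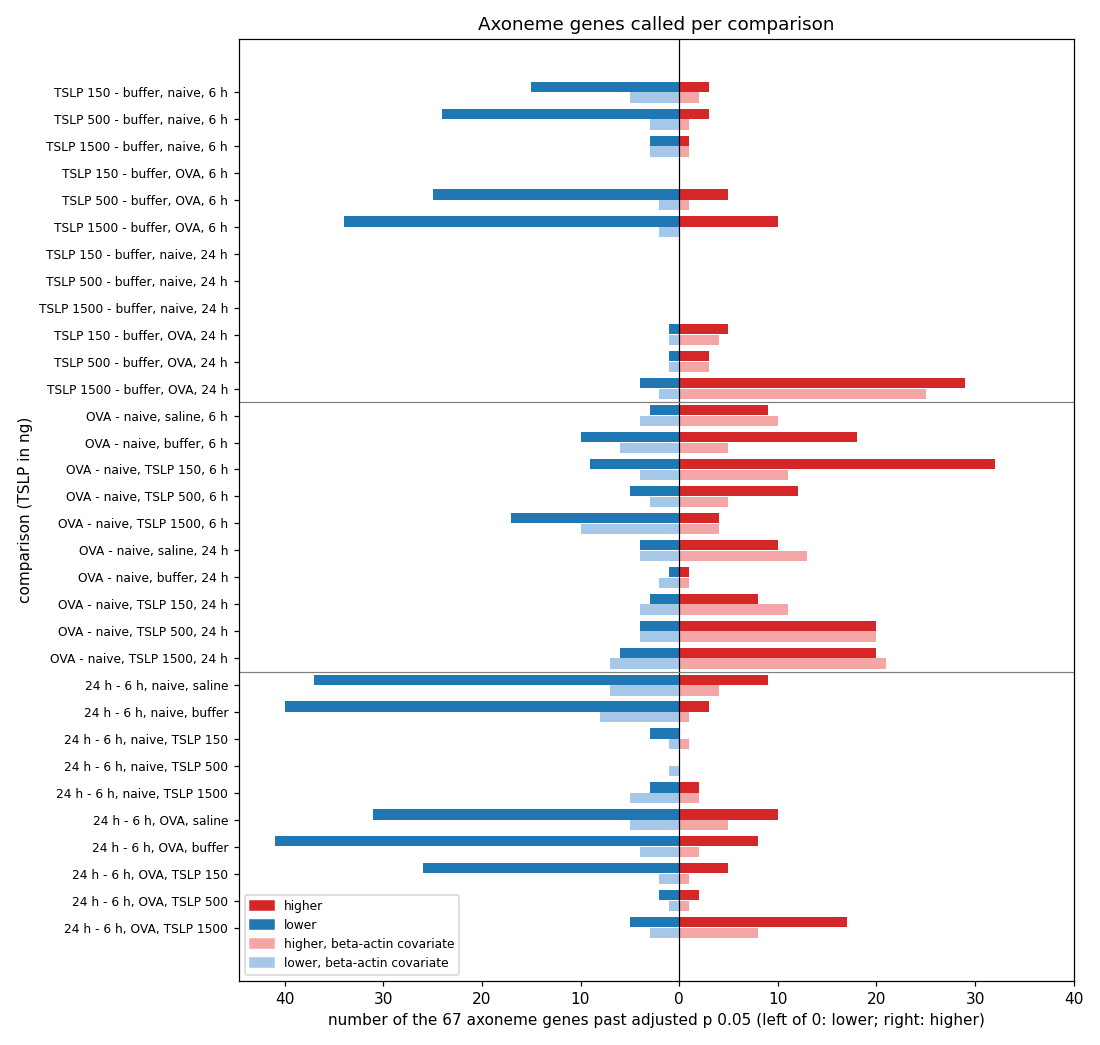
Bars give how many of the 67 axoneme genes were called higher (right of 0) or lower (left of 0) at adjusted p 0.05 in 32 comparisons, with pale bars for the fit with the beta-actin covariate. After 1500 ng TSLP in OVA mice at 24 h 29 genes are higher, and 25 with the covariate. The falls at 6 h and between 6 h and 24 h mostly lose their bars. In OVA mice the beta-actin values after 1500 ng and after buffer do not overlap at either time. They differ by 0.32 at 24 h and by -1.31 at 6 h, so treatment and RNA quality cannot be told apart there.

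At lower doses in OVA mice at 24 h few members were called. After 150 ng 5 rose and 1 fell (7.20% and 3.26% of all genes), and after 500 ng 3 rose and 1 fell (7.43% and 4.35%). Dnah8 rose at each dose, by 0.80 ± 0.17 SE at 150 ng, 0.82 ± 0.17 SE at 500 ng and 0.85 at 1500 ng, all against the same buffer animals. Ift52 rose at each dose too, by 0.17, 0.14 and 0.19. Compared with saline instead, limma called 0 members at 150 ng (0.0148% of all genes called, 2 members at an unadjusted p under 0.05) and 0 at 500 ng (0.311%, 4 members), so neither gene passed there, and the members' medians were -0.0068 and 0.053. Dnah8 itself stood at -0.59 ± 0.17 SE in OVA mice given buffer relative to saline (limma adjusted p = 0.0677). Against buffer the members' median was 0.072, 0.12 and 0.24 in the order of dose. Spag5 rose after 150 ng by 0.71 ± 0.24 SE, Rsph6a fell by 0.23 on the log2 scale, and Spag9, a kinase scaffold, fell by 0.21 after 500 ng.

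In naive mice at 24 h no member was called by limma at any dose. The percentages of all genes called were 0.215% at 150 ng, 0.00% at 500 ng and 0.978% at 1500 ng, and 8, 1 and 17 members had an unadjusted p under 0.05. Without TSLP replicate 5 limma called 1 member at 1500 ng (share of all genes not counted). After 1500 ng the members' median was 0.12 and 55 of 67 differences were above 0, among them Dnah8 at 0.40 ± 0.17 SE, Cfap221 at 0.36 ± 0.16 SE and Dnah2 at 0.34 ± 0.15 SE. A test of whether 1500 ng acted differently in OVA mice than in naive mice at 24 h passed for 1 member, Cfap410 (0.37 ± 0.11 SE; 1.92% of all genes higher and 2.50% lower), so the effect in OVA mice was not shown to differ from that in naive mice for the other 66.

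At 6 h the direction in OVA mice was the opposite. Against buffer, 34 members fell and 10 rose after 1500 ng TSLP, where 35.9% of all genes fell and 24.8% rose. The members' median was -0.22, against -0.062 over all genes. Groups did not overlap for 12 members (17.9%), and for 23.3% of all genes. Beside it stood a large quality difference: beta-actin 3′ minus 5′ was lower by 1.31 after TSLP (difference -1.31, SE 0.10, exact permutation test, adjusted p = 0.0016). With that covariate 2 members were lower and 0 higher (limma, 5.07% and 2.65% of all genes). The beta-actin values did not overlap (2.26 to 2.96 after buffer, 1.06 to 1.49 after TSLP). Treatment and RNA quality therefore cannot be told apart in this comparison.

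All 5 inner dynein arm genes and 4 of 6 outer arm genes were among the falls. Dnah2 ran from 9.11 to 10.56 with a median of 9.91 after buffer, and after 1500 ng TSLP from 8.48 to 9.03 with a median of 8.78, with no overlap. It fell by 1.05 on the log2 scale (SE 0.15, limma adjusted p = 7.47e-10), and stood at -0.22 with the covariate (limma adjusted p = 0.427). Dnah1 (-0.86), Dnah9 (-0.73), Cfap70 (-0.79), Cfap221 (-0.77) and Tekt2 (-0.75) fell too, and none of these passed with the covariate.

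Ift122, a subunit of the IFT-A retrograde complex, and Ift81, an IFT-B subunit that binds tubulin, were the members that fell in both fits. For Ift122 OVA animals given buffer ran from 10.04 to 10.32 with a median of 10.19, and those given 1500 ng from 9.09 to 9.22 with a median of 9.12, a tight group well below the buffer animals. The difference was -1.04 ± 0.10 SE (limma adjusted p = 2.07e-16), and -0.33 with the covariate (limma adjusted p = 0.0237). Ift81 was at -0.57 ± 0.066 SE and at -0.31 with the covariate (limma adjusted p = 0.0107). At 500 ng Ift122 fell by 0.57 on the log2 scale in OVA mice and by 0.49 in naive mice, neither past the threshold with the covariate.

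Foxj1 ran against the dyneins at 6 h. OVA animals given buffer were scattered from 7.21 to 9.35 with a median of 8.30, and those given 1500 ng lay from 8.36 to 9.06 with a median of 8.80, within the buffer animals' range. Foxj1 rose by 0.52 ± 0.18 SE (limma adjusted p = 0.00793), and with the covariate the difference was -0.062 (limma adjusted p = 0.896). Ift20 (0.48), Cfap298 (0.38), Tekt5 (0.33), Spag9 (0.32) and Ift22 (0.26) also rose, and none passed with the covariate. The value for Cfap298 is that of its brightest probe set, and the mean of its 4 probe sets had the opposite sign.

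**Figure D4:**
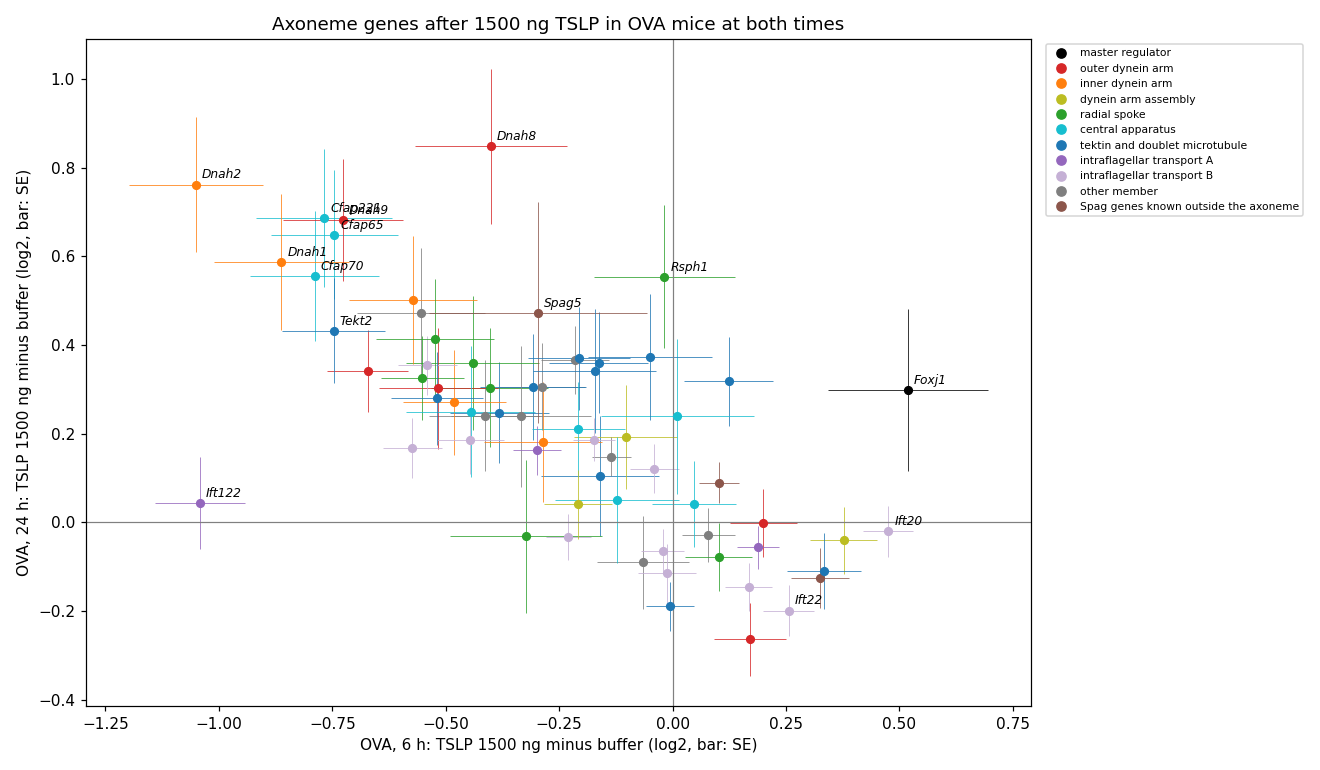
Each point is 1 of the 67 axoneme genes in OVA mice, with the log2 difference between 1500 ng TSLP and buffer at 6 h on the x axis and at 24 h on the y axis, bars giving the SE and colours the role. Dnah2 lies at -1.05 and 0.76, Dnah9 at -0.73 and 0.68, Ift122 at -1.04 and 0.043, and Foxj1 at 0.52 and 0.30.

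The 6 h and 24 h comparisons use different animals throughout. Of the 34 members that fell at 6 h in OVA mice 23 rose at 24 h, which is 67.6% of the falls and 79.3% of the 29 rises, and Ift22 and Ift57 went the other way. Over all genes 38.8% of the falls at 6 h were rises at 24 h, and 66.4% of the rises at 24 h had been falls at 6 h. Over the same comparisons beta-actin 3′ minus 5′ was lower after TSLP at 6 h (-1.31) and higher at 24 h (0.32). Of the ciliated cell genes outside the rule 34 of 58 were lower and 2 higher at 6 h, and 0 and 1 with the covariate. At 6 h endothelial markers rose in 9 of 10 cases and fell in 1, the reverse of 24 h, and no endothelial marker passed with the covariate.

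At the other doses the 6 h counts and the quality difference were as follows. In OVA mice 500 ng gave 5 rises and 25 falls (19.0% and 22.0% of all genes, beta-actin difference -0.78), and 1 and 2 with the covariate (7.99% of all genes called). The beta-actin values did not overlap there (2.26 to 2.96 after buffer, 1.22 to 2.22 after 500 ng). With 150 ng the limma count was 0 (0.163% of all genes called, 2 members at an unadjusted p under 0.05), beside a beta-actin difference of -0.29. In naive mice 150 ng gave 3 rises and 15 falls (11.0% and 16.2%), 500 ng gave 3 and 24 (15.8% and 26.2%), and 1500 ng gave 1 and 3 (5.53% and 9.82%), with beta-actin differences of -0.49, -0.70 and -0.53. With the covariate there were 2 rises and 5 falls at 150 ng (12.1% of all genes called) and 1 and 3 at 500 ng (15.4%).

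Tekt5 rose in naive mice at 6 h at each dose, by 0.27, 0.34 and 0.27, and with the covariate it stood at 0.13, 0.13 and 0.12 and passed at none of them (limma adjusted p = 0.316, 0.275 and 0.444). Dnal1 and Spag9 rose at 150 and 500 ng, and with the covariate Dnal1 kept both calls (0.29 and 0.28) and Spag9 neither. Dnah2 (-0.66), Dnah1 (-0.59) and Tekt2 (-0.58) led the falls at 500 ng, and none of the 3 passed with the covariate. After 1500 ng Ift52 (-0.22), Ift74 (-0.24) and Spag7 (-0.13) fell, of which Ift74 did not pass with the covariate (-0.065, limma adjusted p = 0.642). That count of 4 moved with single buffer animals. It was 10 without buffer replicate 6, 1 without buffer replicate 2, and 9 without the arrays with gullet keratins. Shares of all genes were not counted for these fits.

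The 1500 ng effect differed between OVA and naive mice at 6 h for 24 members, lower in OVA for 20 and higher for 4, beside 17.8% and 14.0% of all genes. Ift122 (-0.85 ± 0.15 SE), Dnah2 (-0.83 ± 0.22 SE), Ift81 (-0.73 ± 0.097 SE), Dnah9 (-0.69), Rsph4a (-0.67) and Tekt2 (-0.50) were more negative in OVA mice, and Ift20 (0.55 ± 0.082 SE), a small IFT-B subunit, more positive. With the covariate 4 were called (7.17% of all genes), of which 3 were also called without it, namely Ift122 (-0.42), Ift81 (-0.58) and Ift20 (0.32). Without the gullet keratin arrays the count was 8, and the share of all genes was not counted for that fit.

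Buffer and saline, the 2 controls, were also compared with each other. In naive mice at 6 h 4 members were higher and 2 lower after buffer (8.09% and 6.83% of all genes). Foxj1 was the largest: naive animals given saline ran from 6.79 to 8.18 with a median of 7.55, and those given buffer from 8.01 to 8.32 with a median of 8.27. Only 2 saline animals reached the lowest buffer animal. It rose by 0.72 ± 0.19 SE (limma adjusted p = 0.00539), and by 0.60 with the covariate. Cfap298, Ift20 and Rsph6a were higher and Ift81 and Ift27 lower. In the other 3 comparisons limma called no member (0.356% of all genes for OVA at 6 h, 0.00741% for naive at 24 h and 0.882% for OVA at 24 h), with 6, 0 and 2 members at an unadjusted p under 0.05. With the covariate 1 member, Dnah8, was lower after buffer in OVA mice at 24 h (-0.60, limma adjusted p = 0.039; 1.45% of all genes called).

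Among mice given saline, OVA and naive animals differed for a few members in each direction. OVA mice given saline, compared with naive mice given saline, had 9 members higher and 3 lower at 6 h (10.9% and 12.6% of all genes) and 10 higher and 4 lower at 24 h (14.0% and 16.4%). As shares of the members the rises were 13.4% and 14.9% and the falls 4.48% and 5.97%. The rises were thus close to the shares of all genes, and the falls below them. The members' medians were 0.13 and 0.13. Beta-actin differences here were 0.028 and -0.10 (exact permutation tests, adjusted p = 0.919 and 0.501). Called higher at both times were Cfap300, Dnah11, Rsph1 and Spag5, and lower Dnal4 and Tekt5. The difference between the 2 times passed for 0 members (0.0222% of all genes called, 0 members at an unadjusted p under 0.05).

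Rsph1 in saline-treated naive animals ran from 8.59 to 9.55 with a median of 9.08 at 24 h, and in OVA animals from 9.09 to 10.28 with a median of 9.68. The groups overlapped, and the rise was 0.55 ± 0.16 SE (limma adjusted p = 0.00458), after 0.42 ± 0.16 SE at 6 h. Dnah8 rose by 0.64 ± 0.17 SE at 24 h, Rsph14 by 0.58 and Tekt4 by 0.41. Foxj1 was at 0.45 ± 0.18 SE (limma adjusted p = 0.0522) and 0.43 ± 0.18 SE (limma adjusted p = 0.062), which did not pass.

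Spag5 had the widest contrast of all members, and it is a mitotic spindle protein, not an axoneme part. At 24 h naive animals given saline ran from 6.31 to 7.19 with a median of 6.74, and OVA animals from 7.68 to 9.02 with a median of 8.49; no OVA animal overlapped the naive ones. It rose by 1.69 ± 0.25 SE there (limma adjusted p = 2.82e-08), by 1.47 ± 0.24 SE at 6 h, and in each of the other 8 comparisons of OVA with naive mice, by 0.86 (buffer, 24 h) to 2.11 (150 ng, 24 h). Markers of dividing cells were higher in 9 of 9 cases in OVA mice given saline, with medians of 1.0 at 6 h and 1.36 at 24 h.

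Deup1 and Ccno, outside the rule, rose as well. Deup1, which builds the deuterosome that multiplies centrioles, rose in saline-treated OVA mice by 1.30 ± 0.16 SE in the 6 h animals and by 1.04 ± 0.17 SE in the 24 h animals, and Ccno, a cyclin-like factor of the same step, by 1.04 ± 0.16 SE and 0.86 ± 0.17 SE. Myb, a transcription factor, rose by 0.46 ± 0.096 SE and 0.47 ± 0.099 SE. Over the whole list of ciliated cell genes outside the rule, 58 in all, the 6 h comparison had 18 rises and 0 falls and the 24 h comparison 17 and 1. In the same comparisons goblet markers rose in 10 of 10 cases (medians 3.49 and 3.28), and alveolar type 1 markers fell in 8 and 10 of 10. The part of those shifts in the members' differences was not tested.

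Between OVA and naive mice given TSLP at 24 h, rises were most frequent at the 2 higher doses. The counts were 8 higher and 3 lower at 150 ng (17.2% and 15.3% of all genes), 20 and 4 at 500 ng (16.8% and 16.1%), and 20 and 6 at 1500 ng (19.7% and 22.8%), but 1 and 1 after buffer (5.03% and 3.53%). At 1500 ng 29.9% of the members were higher, above the share of all genes. Beta-actin differences at 24 h were at most 0.081 for buffer and the 3 doses, and all 26 calls at 1500 ng were also made with the covariate. Dnah8 was higher by 0.72 ± 0.18 SE, 0.95 ± 0.19 SE and 0.77 ± 0.17 SE in the order of dose, and Rsph1 by 0.51 ± 0.17 SE, 0.67 ± 0.17 SE and 0.56 ± 0.16 SE. Dnah2 (0.58), Dnah9 (0.56) and Foxj1 (0.54, limma adjusted p = 0.0119) were higher at 1500 ng. Cfap20 (-0.24), Ift57 (-0.20) and Dnal4 (-0.32) were lower.

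At 6 h the counts of OVA against naive were 18 higher and 10 lower after buffer (15.7% and 18.0% of all genes), 32 and 9 at 150 ng (23.6% and 22.4%), 12 and 5 at 500 ng (18.3% and 13.8%) and 4 and 17 at 1500 ng (17.1% and 27.1%). Beta-actin differences ran alongside, at 0.44, 0.64, 0.35 and -0.35. With the covariate the counts were 5 and 6 (23.8% of all genes called), 11 and 4 (25.1%), 5 and 3 (21.7%), and 4 and 10 (39.3%). At 150 ng Dnah2 was higher by 0.87 ± 0.15 SE with no overlap, and by 0.46 with the covariate (limma adjusted p = 0.00999). At 1500 ng Ift122 was lower, at -0.53 ± 0.10 SE, and at -0.34 with the covariate (limma adjusted p = 0.000114).

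Time after challenge moved many members, beside large quality differences. From 6 h to 24 h after saline 37 members fell and 9 rose in naive mice (36.1% and 25.1% of all genes), and 31 fell and 10 rose in OVA mice (35.7% and 25.3%). Beta-actin 3′ minus 5′ differed by -1.04 and -1.18. In OVA mice its values did not overlap, at 2.18 to 2.72 at 6 h and 1.11 to 1.64 at 24 h. With the covariate 7 members were lower and 4 higher in naive mice (27.0% of all genes called), and 5 and 5 in OVA mice (23.6%). After buffer the counts were 40 lower and 3 higher in naive (31.5% and 18.3%) and 41 and 8 in OVA mice (35.8% and 26.0%), with 8 and 1 (22.5% of all genes called), and 4 and 2 (13.5%), under the covariate.

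Most calls were shared between naive and OVA mice given saline, among the members as among all genes. Of the falls, 29 were shared, 78.4% of those in naive and 93.5% of those in OVA mice (85.0% and 86.1% over all genes). All 9 rises in naive mice were among the 10 in OVA mice. Over all genes, 85.6% of the rises in naive mice and 85.0% of those in OVA mice were shared. Dnah2 (-0.86 in naive and -1.06 in OVA mice), Dnah1 (-0.82 and -0.88), Dnah11 (-0.67 and -0.64) and Ift122 (-0.69 and -0.82) were lower at 24 h. The covariate left Dnah2 at -0.20 and -0.32, neither past the threshold.

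Foxj1 rose over the same interval. In naive animals given saline it ran from 6.79 to 8.18 with a median of 7.55 at 6 h, and from 7.72 to 8.60 with a median of 8.17 at 24 h, a rise of 0.65 ± 0.18 SE (limma adjusted p = 0.000833), and the rise in OVA animals was 0.63 ± 0.18 SE (limma adjusted p = 0.00162). With the covariate these were 0.19 and 0.11, neither past the threshold. Spag9 rose by 0.46 ± 0.064 SE and 0.48 ± 0.067 SE, and with the covariate still by 0.40 and 0.41 (limma adjusted p = 0.000121 and 0.000313). Spag16 rose by 0.45 and 0.49, and by 0.54 and 0.60 with the covariate.

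After TSLP fewer members fell with time, and at the highest dose in OVA mice more rose than fell. In OVA mice the counts from 6 h to 24 h were 26 lower and 5 higher at 150 ng (24.1% and 21.1% of all genes), 2 and 2 at 500 ng (8.83% and 4.94%), and 5 and 17 at 1500 ng (13.2% and 17.6%), while beta-actin differed by -0.89, -0.41 and 0.34. With the covariate they were 2 and 1 (7.22% of all genes called), 1 and 1 (9.19%), and 3 and 8 (21.7%). For 150 ng the beta-actin values did not overlap (2.09 to 2.52 at 6 h, 1.21 to 1.94 at 24 h). At 1500 ng Dnah2 rose by 0.63 ± 0.15 SE, Cfap221 by 0.59 ± 0.16 SE and Dnah9 by 0.51 ± 0.14 SE, and all 3 passed with the covariate (0.41, 0.46 and 0.33). In naive mice the counts were 3 lower and 0 higher at 150 ng (8.60% and 5.16%), 0 and 0 by limma at 500 ng (2.21% of all genes called, 7 members at an unadjusted p under 0.05) and 3 and 2 at 1500 ng (6.06% and 5.05%). With the covariate there was 1 lower and 1 higher at 150 ng (8.92% of all genes called), and at 500 ng 1 member, Ift43, was lower (2.81%). At 1500 ng Cfap69 (-0.51 ± 0.10 SE) and Cfap57 (-0.49 ± 0.15 SE) fell and Ift80 (0.24 ± 0.048 SE) rose, beside a beta-actin difference of -0.039.

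The change with time after buffer differed between OVA and naive mice for 3 members, higher in OVA for 2 and lower for 1, beside 1.51% and 1.39% of all genes. Ift20 (0.33 ± 0.083 SE) and Ift57 (0.26 ± 0.078 SE) were more positive in OVA mice and Ift81 (-0.44 ± 0.098 SE) more negative. With the covariate Ift81 alone was called (-0.36, limma adjusted p = 0.0282; 0.941% of all genes called).

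Over all 20 groups Foxj1 was lowest in naive mice 6 h after saline, at 7.52 ± 0.51 (SD, n = 8), and next lowest in OVA mice 6 h after saline, at 7.96 ± 0.40 (SD, n = 8). It was highest in OVA mice after 1500 ng at 24 h, at 8.85 ± 0.42 (SD, n = 7), followed by OVA mice after 1500 ng at 6 h, at 8.75 ± 0.26 (SD, n = 8), and naive mice after 1500 ng at 6 h, at 8.65 ± 0.28 (SD, n = 8). The other 15 group means lay between 8.11 and 8.62. Neighbours in this order never differed by more than the larger of their SDs. Dnah2 had another order, with its highest mean in OVA mice 6 h after saline at 9.85 ± 0.38 (SD, n = 8) and its lowest in naive mice 24 h after buffer at 8.49 ± 0.16 (SD, n = 7).

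**Figure D5:**
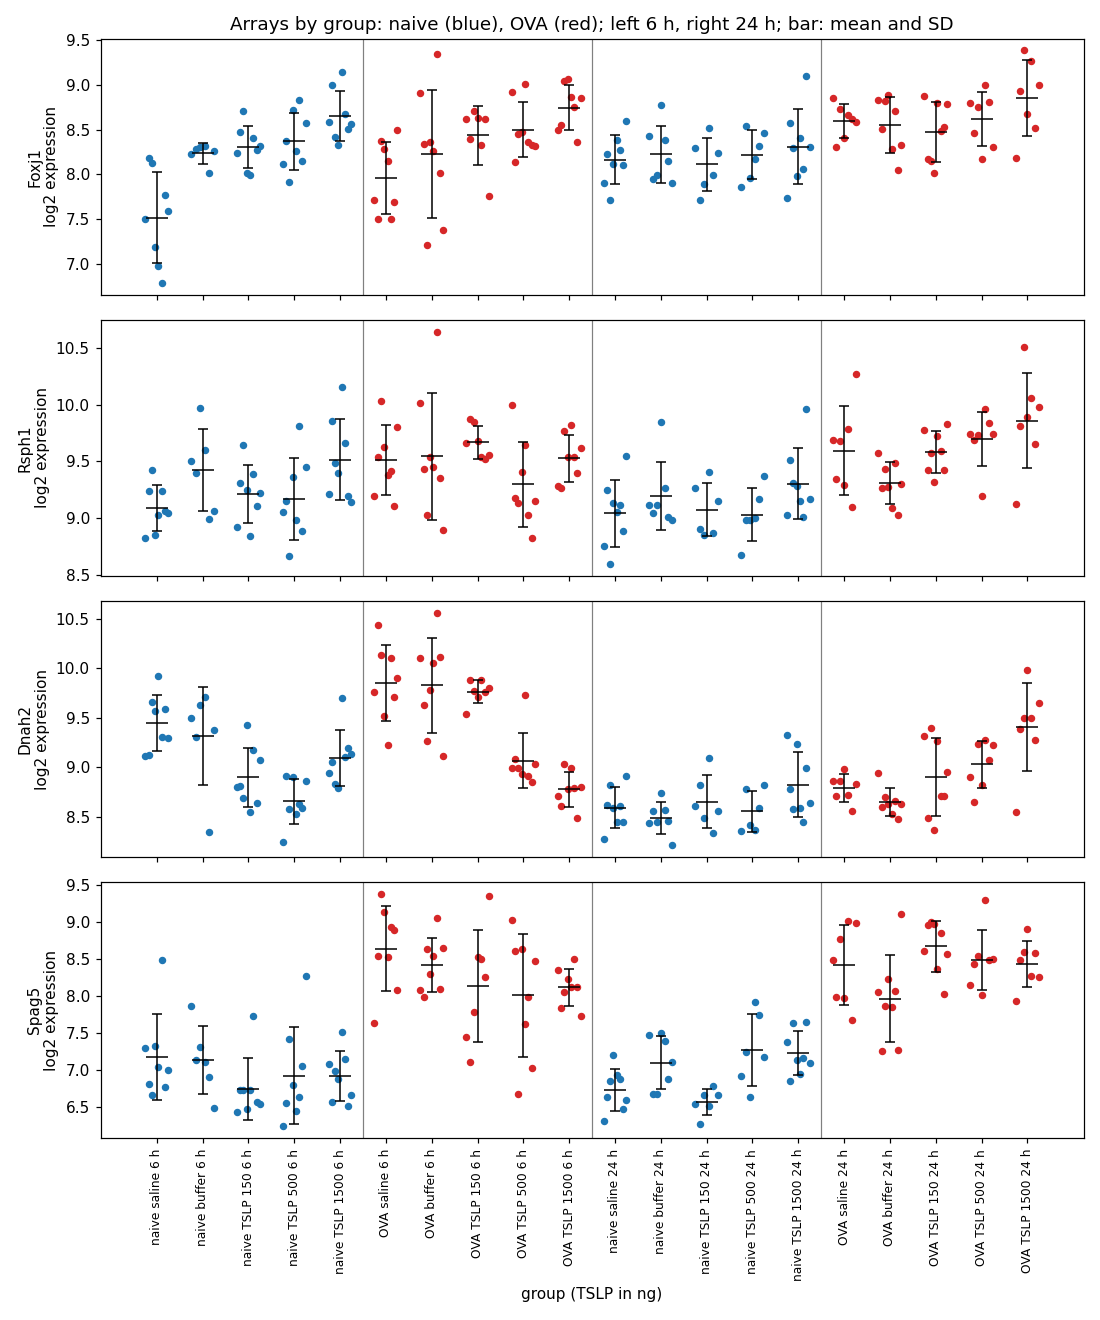
Points are single animals in the 20 groups (naive blue, OVA red; 6 h on the left, 24 h on the right) with log2 expression of Foxj1, Rsph1, Dnah2 and Spag5 on the y axes, and bars give the mean and SD. Foxj1 starts at 7.52 in naive mice 6 h after saline, Dnah2 falls from 9.85 to 8.79 between 6 h and 24 h in OVA mice given saline and stands at 9.40 after 1500 ng at 24 h, and Spag5 is higher in OVA than in naive mice throughout.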

How the data were processed

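The deposited table holds log2 expression values from RMA, run by the authors according to the submitters' processing notes, for 26166 probe sets with 1 animal per array ( values 2.955 to 15.11, array medians 8.97 to 9.16). Probe sets were named through GEO's platform annotation: 22892 name 1 gene, 260 several and 3014 none, and only the first were used. Symbols were updated through Entrez numbers for 22834. The number of arrays limits the precision. Each gene was fitted with limma 3.58.1 in R 4.3.3, with 1 mean per group over all arrays (129 residual degrees of freedom), tested on simulated data first, for 36 comparisons and 4 differences between comparisons. P-values were adjusted by Benjamini-Hochberg over 13494 genes and called at 0.05. The beta-actin difference was compared by two-sided exact permutation tests.

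The members and the gene lists were chosen with earlier results of these data known. Besides fixed core members, the rule named up to 6 rises and 6 falls per comparison, up to 4 genes of each other list, and the 10 genes most like Foxj1. Other genes named were picked after their values were seen. Other settings tried were averaging a gene's probe sets, the dimmest 40% of genes left out, quantile normalization, replicate number as a block, the beta-actin covariate, array weights, saline as reference, a fit on only the groups compared, the 6 gullet keratin arrays left out, and each replicate left out in turn. No 2 arrays held identical values.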

Additional observations from a re-analysis of the deposited data

Results flagged for a closer look

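Single arrays lying far from the rest of their group were looked for in 8 members over the 20 groups, which is 160 tests, and 16 were found, where chance alone flags about 1 in 20. For Foxj1 they were naive buffer 6 h replicate 6, the lowest of its group at 8.01, and OVA 150 ng 6 h replicate 7 at 7.76. For Rsph1 they were naive buffer 24 h replicate 5 at 9.85 and OVA 500 ng 24 h replicate 4 at 9.20. Tekt1 stood at 9.27 in OVA saline 6 h replicate 7, where Hydin also stood apart at 7.54. Hydin stood apart in naive 1500 ng 24 h replicate 7 at 8.85, in OVA 1500 ng 24 h replicate 1 at 7.53 and in OVA 500 ng 6 h replicate 5 at 8.70. That last animal also stood apart for Dnah2 at 9.72 and for Dnah9 at 8.95. Dnah2 was at 8.35 in naive buffer 6 h replicate 6, which has gullet keratins, and at 9.69 in naive 1500 ng 6 h replicate 5. Spag5 was at 8.49 in naive saline 6 h replicate 6, at 7.73 in naive 150 ng 6 h replicate 6 and at 9.30 in OVA 500 ng 24 h replicate 5.

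Differences between comparisons were looked at for 24 named members in 4 contrasts, 96 in all, and 9 passed limma's adjusted threshold. All were the 1500 ng effect in OVA mice minus that in naive mice at 6 h. In that contrast 14.0% of all genes were higher and 17.8% lower. The effect was more negative in OVA mice for Ift122 by -0.85, Dnah9 by -0.69, Rsph4a by -0.67, Tekt2 by -0.50, Ift172 by -0.47, Dnah11 by -0.45, Rsph9 by -0.44 and Ift140 by -0.25, and more positive for Spag7 by 0.24. Beside these values, the beta-actin difference after 1500 ng was -1.31 in OVA and -0.53 in naive mice, and of the 9 only Ift122 passed with it as a covariate.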

How the results depend on the processing

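Counts are of the 67 members called by limma, and the cause of each change given here was not tested unless stated. Shares of all genes were counted for the main fit, the covariate fit and saline as reference, not for the other settings. In OVA mice at 24 h the count for 1500 ng TSLP minus buffer, 33, was 21 with the dimmest 40% of genes left out, where fewer members were tested, and 15 against saline. In OVA mice at 6 h the count of 44 was 2 with the beta-actin covariate. In naive mice at 6 h the count of 4 was 9 without the gullet keratin arrays, 13 with array weights and 0 in a fit on the compared groups alone. Against saline it was 23, with 14 members higher and 9 lower, beside 17.9% and 24.8% of all genes. Leaving out 1 replicate at a time, for 1500 ng against buffer and chosen after seeing the data, gave 26 to 41 calls in OVA mice at 24 h, 41 to 48 in OVA mice at 6 h, 0 to 1 in naive mice at 24 h (1 without TSLP replicate 5) and 1 (without buffer replicate 2) to 10 (without buffer replicate 6) in naive mice at 6 h. Over the same fits the members' median ran, in that order, from 0.188 to 0.35, -0.27 to -0.167, 0.102 to 0.154 and -0.066 to 0.033.

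For OVA against naive mice given saline, the count of 12 at 6 h was 7 without the dim genes, 7 with array weights and 2 in a fit on those groups alone, and the count of 14 at 24 h was 7, 37 and 23. For 24 h against 6 h after saline, the count of 46 in naive mice was 27 without the dim genes and 11 with the covariate, and that of 41 in OVA mice 27 and 10. The covariate moved the members' median from -0.24 to -0.080 in naive mice and from -0.21 to -0.071 in OVA mice over that interval, from -0.24 to -0.066 in OVA mice given 150 ng, and from 0.22 to 0.098 for OVA against naive mice 6 h after 150 ng. The 24 members whose 1500 ng effect differed between OVA and naive mice at 6 h were 8 without the gullet keratin arrays, 4 with the covariate and 12 in a fit on those groups alone. The count of 1 at 24 h was 0 with the mean of all probe sets, 11 with array weights and 0 alone. The count of 3 for the change with time after buffer between OVA and naive mice was 1 with the mean of all probe sets, 1 with the covariate and 1 alone.

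Named members changed sign as follows. With the covariate at 6 h after 1500 ng in OVA mice, Cfap97 was 0.024, Dnah8 0.23, Foxj1 -0.062, Ift22 -0.11, Ift27 0.0025, Spag6l 0.11 and Tekt5 -0.060. With the covariate for 24 h against 6 h in naive mice given saline, Cfap298 was -0.0087, Ift20 -0.043, Ift22 -0.14, Ift81 0.025 and Spag6l 0.023, and in OVA mice Cfap126 was 0.0073, Cfap298 -0.077, Dnah12 0.042, Dnal4 -0.073, Ift140 0.049 and Ift22 -0.17. The mean of all probe sets gave Cfap298 -0.097 at 6 h after 1500 ng in OVA mice and -0.083 and -0.13 for time in naive and OVA mice given saline. Against saline at 6 h after 1500 ng, Cfap52 was 0.26, Ift20 0.19 and Rsph6a 0.19 in naive mice, and Spag7 -0.0067 in OVA mice.

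Over the 36 comparisons the calls summed to 612, and to 589 with the mean of probe sets, 403 without the dim genes, 607 after quantile normalization, 602 without the gullet keratin arrays, 274 with the covariate, 837 with array weights and 537 in fits on the compared groups alone. Same-numbered animals did not deviate together (mean correlation 0.0027 against 0.0034 for other pairs), so the numbers were not taken as pairs. With the replicate block the sum was 601, and after 1500 ng the counts were 31 and 44 in OVA mice at 24 h and 6 h and 3 and 0 in naive mice at 6 h and 24 h.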
